A study of Xenopus tropicalis with 18 samples.

Results

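The SoxB genes *sox1*, *sox2*, *sox3* and *sox21* were followed, by gene name, through all 4 tables of the series, as 4 of 28850 genes. The tables hold bulk RNA-seq of whole *X. tropicalis* embryos in which Foxi2 or Sox3 was knocked down with a translation-blocking morpholino antisense oligonucleotide (MO). The study describes this RNA-seq as of embryos. Its knockdown methods also mention animal caps dissected ahead of RNA harvest, without naming the assay they served. By the labels the MO was injected into the animal hemisphere of wild-type embryos at the 1-cell stage, where the study's methods for its knockdowns also name the 2-cell stage, and poly(A) RNA was sequenced at stage 9 (late blastula) and stage 10.5 (early gastrula). The Foxi2 series holds 3 morphant and 3 control libraries at stage 9 and 2 and 2 at stage 10.5, and the Sox3 series, with controls of its own, holds 2 and 2 at each stage. This makes 18 libraries, with totals of 12740571 to 27866261 expected counts. The study calls the controls wild-type embryos, but the labels list a morpholino as the treatment of the control libraries too, so whether controls were injected is not known here. Nor do the labels say how many embryos entered a library or whether the libraries of a group came from separate clutches, so the p-values measure the spread between these libraries, which may be partly technical.

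SoxB proteins bind DNA through an HMG box. The SoxB1 members Sox1, Sox2 and Sox3 act mainly as transcriptional activators, often beside a POU partner, and hold ectoderm in a neural progenitor state. Sox21 belongs to SoxB2, whose members act mainly as repressors and are known for opposing SoxB1 activity in vertebrate neural tissue. In *Xenopus*, *sox3* mRNA is supplied by the mother and is concentrated in the animal hemisphere, the future ectoderm, whereas *sox2* is known as an early gene of the presumptive neural plate.

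In RefSeq's annotation of UCB_Xtro_10.0, *sox1* (chromosome 2, 116549825 to 116552954, 3130 bp) and *sox21* (chromosome 2, 122613553 to 122616568, 3016 bp) lie on the same chromosome. *sox2* lies on chromosome 5 (108035485 to 108037707, 2223 bp) and *sox3* on chromosome 8 (55346463 to 55348089, 1627 bp). These spans were used as gene lengths when levels were compared between genes. Levels are given as CPM, counts scaled to the size of each library after TMM correction.

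*sox3* was the most abundant SoxB transcript in every library. In controls its level per kilobase lay between 288 and 503 CPM, against 3.28 to 171 CPM per kilobase for *sox2*, 0.348 to 13.9 for *sox21* and 0.186 to 1.76 for *sox1*. Across all libraries *sox3* made up from 66.5% to 99.2% of the summed level per kilobase of the 4 genes. The lowest share, 66.5%, was in control replicate 1 of the Foxi2 series at stage 10.5, where *sox2* made up 31.0%. The highest shares were in the replicate 1 libraries of the Foxi2 series at stage 9, where *sox2* made up 0.647% in the control and 0.622% in the morphant.

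**Figure D1:**
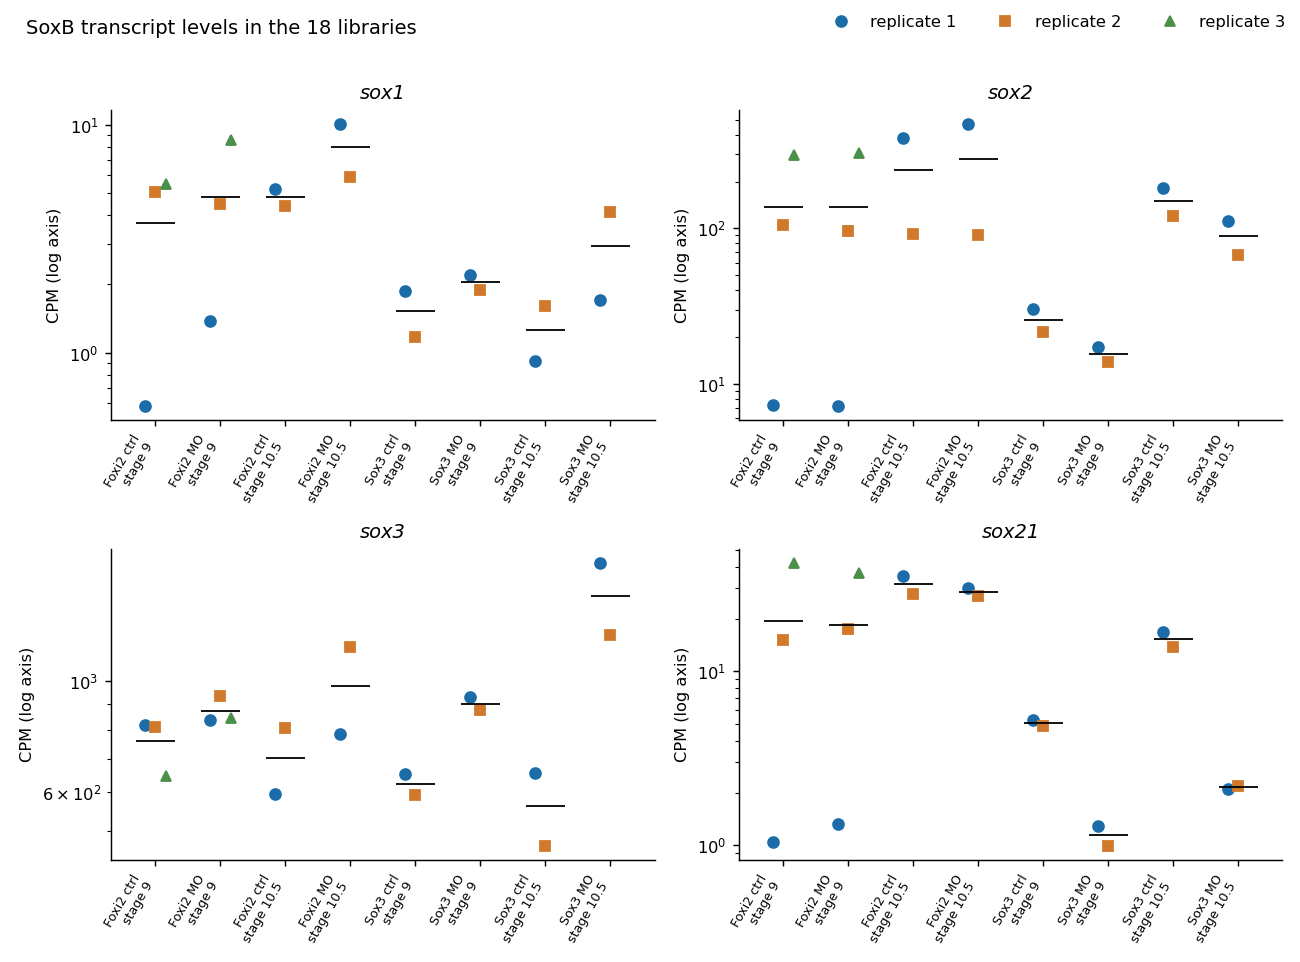
TMM-scaled CPM (log axis) of each SoxB gene in each of the 18 libraries. Marker shape and colour give the replicate number and the horizontal line the group mean; *sox2* and *sox21* spread widely over the Foxi2 series at stage 9, while *sox21* is lower in Sox3 morphants than in their controls at both stages.

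**Figure D2:**
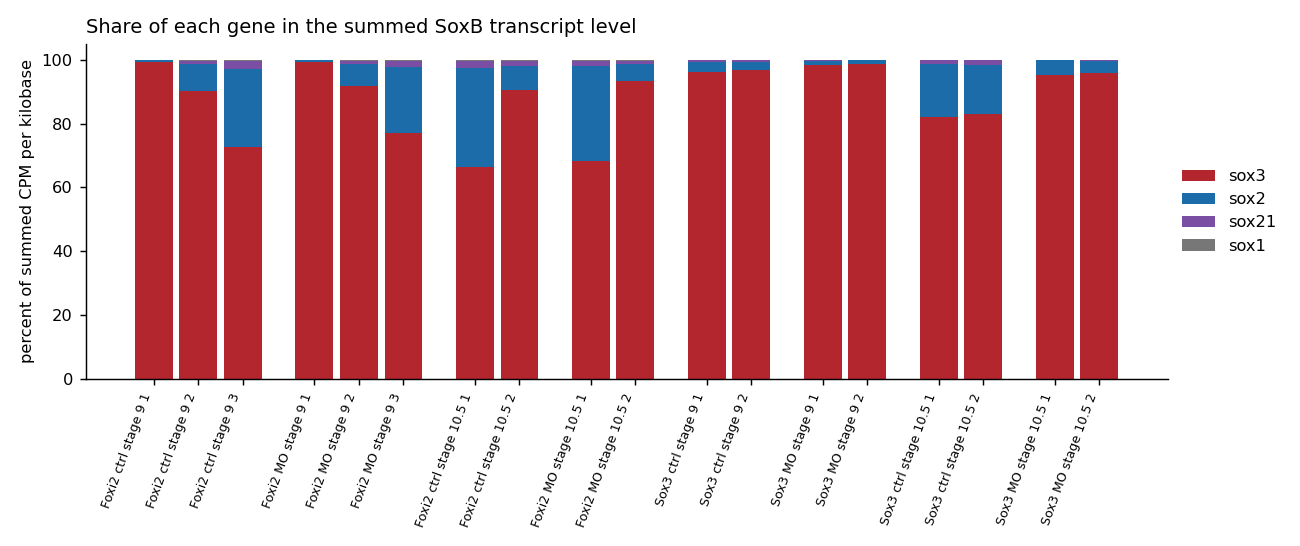
Percent of the summed level per kilobase (CPM divided by gene span) that each SoxB gene takes in each library. *sox3* takes 66.5% to 99.2%, and *sox2* most of the remainder.

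Transcript levels by stage were first described in controls. *sox3*, the maternally supplied SoxB1 gene, was at 819, 812 and 645 CPM in control replicates 1, 2 and 3 of the Foxi2 series at stage 9 and at 596 and 807 CPM at stage 10.5. In the controls of the Sox3 series it was at 652 and 593 CPM at stage 9 and at 655 and 469 CPM at stage 10.5. All 9 control libraries therefore fell between 469 and 819 CPM, and the ranges of both stages overlapped in both series. The fitted difference between stages was -0.11 on the log2 scale (SE 0.20) in the Foxi2 series and -0.23 (SE 0.20) in the Sox3 series, with adjusted p of 0.857 and 0.467 (edgeR quasi-likelihood test, Benjamini-Hochberg over all genes tested). Its sign turned to 0.090 without control replicate 1 of the Foxi2 series at stage 10.5 and to 0.031 without control replicate 2 of the Sox3 series at stage 10.5.

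*sox2*, the SoxB1 gene of the early neural plate, was at 30.1 and 21.4 CPM in Sox3-series controls at stage 9 and at 181 and 121 CPM at stage 10.5. The groups did not overlap, and *sox2* rose by 2.47 on the log2 scale (SE 0.29), with an edgeR adjusted p of 0.0105. *sox21*, the SoxB2 gene, went from 5.27 and 4.82 CPM to 16.9 and 13.9 CPM in the same libraries, again without overlap, a rise of 1.52 (SE 0.29, edgeR adjusted p = 0.027). How many of all genes had groups without overlap was not counted, here or below. With 2 libraries against 2, an exact two-sided permutation test of such a separation cannot go below p = 0.333. A call needed an adjusted p under 0.05 and at least a 2-fold difference, and 14.1% of the 14067 genes tested met it in this comparison (5.46% as higher), so that 2 of the 4 SoxB genes were called. With the replicate number as a block, where 23.1% of genes were called, the adjusted p was 4.76e-09 for *sox2* and 6.98e-05 for *sox21*. When all 18 libraries shared a single estimate of the spread, both calls were lost, with adjusted p of 0.296 and 0.437. The call of *sox21* was also lost without control replicate 1 (1.57) or 2 (1.46) of stage 9 or control replicate 1 of stage 10.5 (1.36), while its change without the remaining control was 1.70.

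*sox1*, the SoxB1 gene with the lowest level, was at 1.86 and 1.18 CPM in Sox3-series controls at stage 9 and at 0.925 and 1.61 CPM at stage 10.5. These values rest on 48, 33, 21 and 35 counts and overlap between stages. The fitted difference was -0.35 (SE 0.57, edgeR adjusted p = 0.735), and 0.0073 without control replicate 1 of stage 9.

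In the Foxi2 series the control libraries of stage 9 were far apart for the other 3 SoxB genes, and at stage 10.5 those for *sox2* were. *sox2* was at 7.29, 105 and 298 CPM in control replicates 1, 2 and 3 at stage 9 and at 379 and 91.7 CPM at stage 10.5. Control replicate 3 of stage 9 was thus above control replicate 2 of stage 10.5. *sox21* was at 1.05, 15.2 and 41.8 CPM at stage 9 and at 35.4 and 27.9 CPM at stage 10.5, with the highest level in a stage 9 library. *sox1* was at 0.583, 5.06 and 5.49 CPM at stage 9 and at 5.22 and 4.41 CPM at stage 10.5. In log2 CPM the range over the 3 stage 9 controls was 5.33 for *sox2*, 5.19 for *sox21*, 3.03 for *sox1* and 0.35 for *sox3*.

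No SoxB gene was called between stages in Foxi2-series controls, where 0% of 13247 genes were called by edgeR, with or without the block, and 0.0252% by DESeq2, and none of the 4 had an unadjusted p under 0.05. Over all genes, 579 of 13247 were under this p in the edgeR fit without the block. The log2 difference was 0.79 (SE 1.38) for *sox2*, 0.71 (SE 1.25) for *sox21* and 0.38 (SE 0.94) for *sox1*. Leaving out control replicate 1 of stage 10.5 turned *sox2* to -0.58, and leaving out control replicate 1 of stage 9 turned *sox1* to -0.13. Stage 9 replicate numbers did not go with stage 10.5 replicate numbers in this series, with correlations of -0.46 and 0.059 between the same-numbered libraries.

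Germ layer markers spread in the same stage 9 libraries. The summed level of 6 mesoderm markers (*tbxt*, *wnt8a*, *ventx1.1*, *mespb*, *foxc1* and *gsc*) was 6.94, 134 and 581 CPM in control replicates 1, 2 and 3. The study itself counts *gsc* among the endodermal genes of its vegetal explants, so this sum may not be of mesoderm alone. The summed level of 6 endoderm markers was 16.2, 268 and 915 CPM, and that of 6 non-neural ectoderm markers (*tfap2a*, *krt7*, *krt70*, *foxi1*, *dlx3* and *grhl1*) was 355, 443 and 1274 CPM. In all 3 lists, as for *sox2* and *sox21*, replicate 1 was lowest and replicate 3 highest. In Foxi2 morphants 1, 2 and 3 of this stage the mesoderm sum was 4.45, 196 and 585 CPM, the endoderm sum 16.6, 573 and 1274 CPM and the non-neural ectoderm sum 390, 503 and 849 CPM, again lowest in replicate 1 and highest in replicate 3. In the Sox3-series controls the mesoderm sum went from between 73.8 and 74.9 CPM at stage 9 to between 817 and 906 CPM at stage 10.5. Of the 3 lists, 1 gene, a non-neural ectoderm marker, was at 0 counts throughout a group, the Sox3 morphants of stage 9, and no other gene was in any group. The part of these markers in the SoxB levels was not tested. In bulk libraries fewer cells with a transcript and less transcript per cell cannot be told apart.

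**Figure D3:**
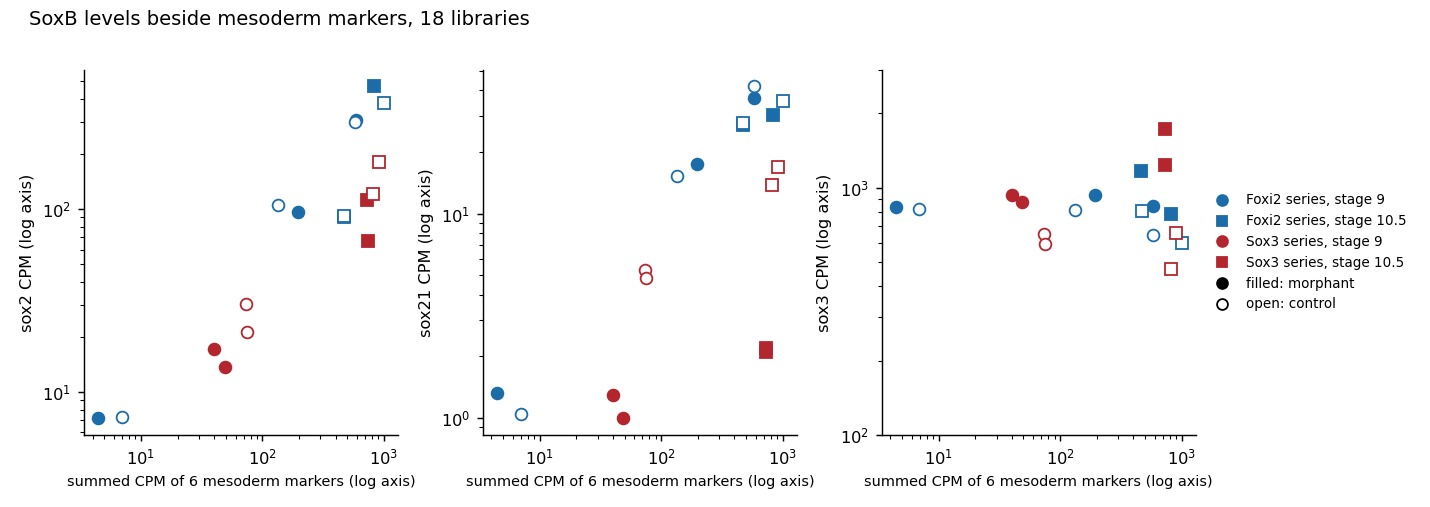
CPM of *sox2*, *sox21* and *sox3* (log axis) against the summed CPM of 6 mesoderm markers (log axis), 1 point per library. Circles are stage 9, squares stage 10.5, blue the Foxi2 series and red the Sox3 series. The 2 replicate 1 libraries of the Foxi2 series at stage 9 lie at the far left, with 4.45 and 6.94 CPM of markers. In *sox21* the Sox3 morphants of stage 10.5 (725 and 733 CPM of markers) lie below other libraries of like marker sum. The Sox3 morphants of stage 9 (39.9 and 48.8 CPM) have no such neighbours, as no other library lies between 6.94 and 73.8 CPM.

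Libraries with the same replicate number deviated together in morphants and controls, with correlations over genes of 0.748 to 0.940 in the 9 pairs, and were therefore read as pairs. In groups of 2, both pairs of a comparison give the same correlation by construction. The 3 pairs of the Foxi2 series at stage 9, at 0.940, 0.799 and 0.924, are thus the stronger evidence. The pairing comes from the values and not from the labels. At stage 9 in the Foxi2 series the replicate number accounted for 99.97% of the variance of log2 CPM for *sox2*, 99.7% for *sox21*, 91.3% for *sox1* and 38.7% for *sox3*. The knockdown there accounted for 0.00694% for *sox2*, 0.0647% for *sox21*, 4.27% for *sox1* and 40.6% for *sox3*. At stage 10.5 of that series it accounted for 0.402% for *sox2*, 18.8% for *sox21*, 59.1% for *sox1* and 45.5% for *sox3*. In the Sox3 series the knockdown accounted for 98.4% at stage 9 and 99.5% at stage 10.5 for *sox21*, 95.5% and 89.5% for *sox3*, 75.3% and 57.4% for *sox2*, and 46.3% and 52.7% for *sox1*. Each knockdown was therefore fitted without the block, as the main test, and with it.

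Sox3 knockdown was examined first, because its target is itself a SoxB gene. The MO blocks translation, so the transcript does not check the depletion of the protein. The study itself reports, by Western blot, that each MO strongly lowered its protein. At stage 9 *sox3* was at 931 and 874 CPM in morphant replicates 1 and 2 against 652 and 593 CPM in controls. At stage 10.5 it was at 1724 and 1241 CPM in morphants against 655 and 469 CPM in controls. All 4 morphant libraries were above every control of their stage, and the morphant level was 1.43 and 1.47 times that of the same-numbered control at stage 9 and 2.63 and 2.65 times at stage 10.5. How many of all genes separated in this way was not counted. At stage 10.5, 2.12% of all genes were at least 2-fold higher in both pairs.

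In the fits without a block the *sox3* difference was 0.54 (SE 0.11) at stage 9, with an edgeR adjusted p of 0.832, and 1.42 (SE 0.24) at stage 10.5, with an adjusted p of 0.357. With the replicate block the adjusted p was 0.0047 for 0.54 (SE 0.083) at stage 9, under the 2-fold minimum. At stage 10.5 it was 7.1e-05 for 1.42 (SE 0.15), and *sox3* rose by this call. DESeq2 without a block also called *sox3* at stage 10.5 (1.40, adjusted p = 8.17e-05), and at stage 9 gave an adjusted p of 0.00497 for 0.54. The stage 10.5 effect exceeded that of stage 9 by 0.88 on the log2 scale. Its edgeR adjusted p was 1 without the block and 0.106 with it, and 2.24e-05 in DESeq2 with the block, which was the only setting that called it. Of all genes, 0% differed between stages in this way without the block, 0.0738% with it, and 0.433% in DESeq2 with it.

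*sox21* was the SoxB gene that differed most from control in Sox3 morphants. At stage 9 it was at 1.29 and 0.996 CPM in morphants (39 and 27 counts) against 5.27 and 4.82 CPM in controls (136 and 135 counts). At stage 10.5 it was at 2.11 and 2.20 CPM (53 and 44 counts) against 16.9 and 13.9 CPM (383 and 302 counts). Neither stage showed any overlap, and even at stage 10.5 the morphant libraries stood below the stage 9 controls. The share of all genes without overlap was not counted. Per pair the morphant held 0.245 and 0.207 of the control level at stage 9 and 0.125 and 0.159 at stage 10.5. Of all genes, 1.05% at stage 9 and 1.45% at stage 10.5 were at least 2-fold lower in both pairs.

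Without a block the *sox21* difference was -2.13 (SE 0.35) at stage 9 and -2.81 (SE 0.30) at stage 10.5, with edgeR adjusted p of 0.63 and 0.202. With the replicate block *sox21* fell at both stages, with log2 differences of -2.14 (SE 0.24, edgeR adjusted p = 0.000727) and -2.81 (SE 0.24, adjusted p = 1.3e-05). DESeq2 without a block made the same calls, with adjusted p of 0.0113 and 1.82e-10. The stage 10.5 effect was further from 0 than that of stage 9 by -0.67 with the block, which did not pass the test (edgeR adjusted p = 0.846). The stages are therefore not shown to differ in the size of the *sox21* change.

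*sox2* was at 17.1 and 13.7 CPM in Sox3 morphants at stage 9 against 30.1 and 21.4 CPM in controls. At stage 10.5 it was at 112 and 67.2 CPM in morphants against 181 and 121 CPM in controls. Morphants were below controls at both stages without overlap, at 0.569 and 0.642 of the same-numbered control at stage 9 and at 0.618 and 0.557 at stage 10.5. Of all genes, 28% at stage 9 and 33% at stage 10.5 were lower in both pairs. That rule allows overlap, and the share of all genes without overlap was not counted. The fitted difference was -0.74 (SE 0.25) at stage 9 and -0.74 (SE 0.33) at stage 10.5, with edgeR adjusted p of 1 and 0.949. With the replicate block the adjusted p was 0.00613 for -0.73 and 0.0151 for -0.75, both under the 2-fold minimum. In the block fits 2.6% of genes at stage 9 and 4.77% at stage 10.5 had an adjusted p under 0.05 at any fold.

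*sox1* was at 2.19 and 1.88 CPM in Sox3 morphants at stage 9 against 1.86 and 1.18 CPM in controls, and at 1.71 and 4.15 CPM against 0.925 and 1.61 CPM at stage 10.5. Morphants were above controls without overlap at both stages, by 1.18 and 1.60 times per pair at stage 9 and by 1.85 and 2.59 times at stage 10.5. At stage 10.5 these ratios rest on 43 and 83 counts against 21 and 35. The share of all genes without overlap was not counted. The fitted difference was 0.42 (SE 0.44) and 1.22 (SE 0.63), with edgeR adjusted p of 1 and 0.991. It was not called with the block either (0.44, adjusted p = 0.711, and 1.16, adjusted p = 0.112).

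Over all genes, the edgeR fit without a block called 0% at either stage of the Sox3 series, with 392 genes at stage 9 and 795 at stage 10.5 at an unadjusted p under 0.05, and 3 and 2 of the 4 SoxB genes among them. DESeq2 called 0.324% (68 genes) and 0.874% (188 genes). With the replicate block 1.32% of 13909 genes were called at stage 9 (1.01% as lower) and 3.35% of 14427 at stage 10.5 (1.48% as lower and 1.87% as higher). Against this background 1 of the 4 SoxB genes was called at stage 9, as lower, and 2 at stage 10.5, 1 in each direction. In 1.05% of genes at stage 9 and 1.45% at stage 10.5 both pairs were at least 2-fold lower in the morphant, as for *sox21*, and in 2.12% at stage 10.5 both were at least 2-fold higher, as for *sox3*. The mesoderm marker sum was 39.9 and 48.8 CPM in morphants against 73.8 and 74.9 CPM in controls at stage 9, and 725 and 733 CPM against 906 and 817 CPM at stage 10.5. The endoderm sum was 146 and 195 CPM against 195 and 229 CPM at stage 9, and 1808 and 2346 CPM against 1489 and 1804 CPM at stage 10.5. The non-neural ectoderm sum was 302 and 321 CPM against 315 and 384 CPM at stage 9, and 685 and 544 CPM against 1118 and 793 CPM at stage 10.5, and with the block 3 of 5 tested genes of this list were called as lower at stage 9 and 3 of 6 at stage 10.5. At stage 9 most of this sum was *grhl1*, with means of 277 CPM in morphants and 273 CPM in controls. The called genes there were *tfap2a* (14.5 against 33.7 CPM), *krt7* (14.1 against 31.6 CPM) and *foxi1* (1.70 against 7.10 CPM). The part of these differences in the SoxB values was not tested.

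**Figure D4:**
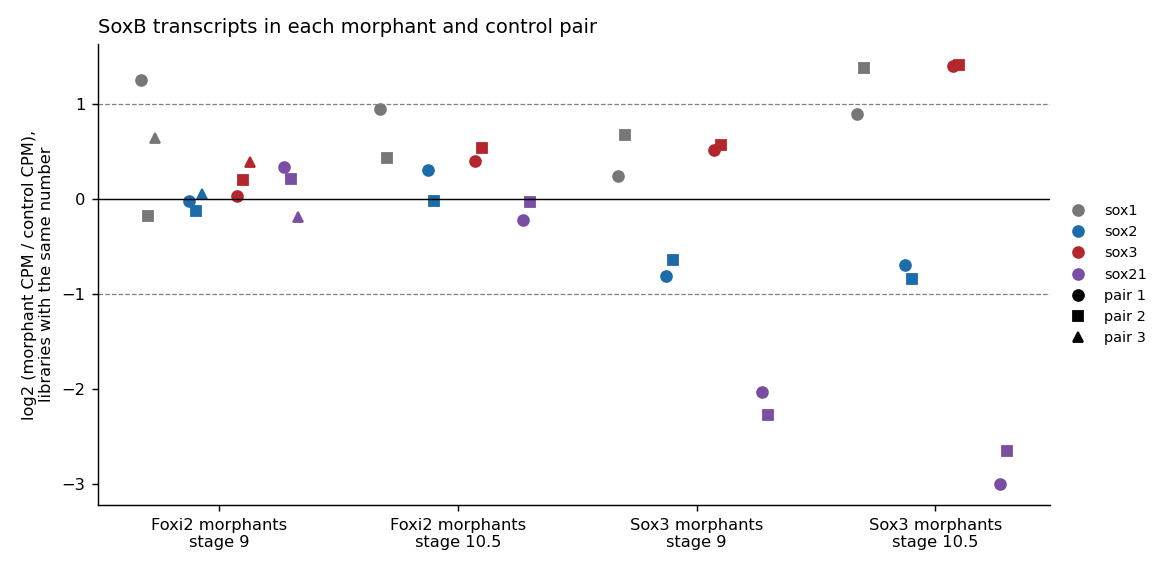
Log2 ratio of morphant to control CPM in each same-numbered pair, for each SoxB gene and comparison. Dashed lines mark a 2-fold difference; in Sox3 morphants *sox21* lies below -1 in all 4 pairs and *sox3* above 1 in both pairs of stage 10.5, while in Foxi2 morphants *sox2*, *sox3* and *sox21* stay within the dashed lines.

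In Foxi2 morphants none of the 4 SoxB genes was called at either stage by any setting. Foxi2 is a maternal forkhead factor of the ectoderm, and its MO does not target a SoxB gene. The *foxi2* transcript was at 1.09, 1.15 and 1.69 times the same-numbered control at stage 9 and at 2.45 and 1.47 times at stage 10.5. *sox3* was at 835, 933 and 843 CPM in morphant replicates 1, 2 and 3 at stage 9 against 819, 812 and 645 CPM in controls, and at 785 and 1171 CPM against 596 and 807 CPM at stage 10.5. It was above the same-numbered control in all 5 pairs, by 1.02, 1.15 and 1.31 times at stage 9 and by 1.32 and 1.45 times at stage 10.5. At stage 9 the groups did not overlap, and at stage 10.5 they did. Of all genes, 17.6% at stage 9 and 31.2% at stage 10.5 were higher in every Foxi2 pair. That rule allows overlap, and the share of all genes without overlap was not counted.

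The fitted *sox3* difference in Foxi2 morphants was 0.20 (SE 0.13) at stage 9 and 0.48 (SE 0.27) at stage 10.5, with an edgeR adjusted p of 1 at both. With the replicate block it was 0.21 (SE 0.072, adjusted p = 0.236) at stage 9 and 0.47 (SE 0.055, adjusted p = 0.00504) at stage 10.5, where 6.05% of all genes had an adjusted p under 0.05. This difference is under the 2-fold minimum.

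*sox2* was at 7.15, 96.0 and 307 CPM in Foxi2 morphants at stage 9, next to 7.29, 105 and 298 CPM in the same-numbered controls. Morphant and control differed far less within a pair than the pairs differed from each other, and the ratio was 0.981, 0.914 and 1.03. At stage 10.5 *sox2* was at 469 and 90.2 CPM in morphants against 379 and 91.7 CPM in controls, with ratios of 1.24 and 0.983. The log2 difference was 0.0065 (SE 1.53) at stage 9 and 0.25 (SE 1.06) at stage 10.5, and with the block -0.033 (edgeR adjusted p = 0.995) and 0.16 (SE 0.089, adjusted p = 0.394). The sign at stage 9 also turned without morphant replicate 3 (-1.42), control replicate 1 (-0.55) or control replicate 2 (-0.16), and at stage 10.5 without morphant replicate 1 (-1.39) or control replicate 2 (-0.43).

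*sox21* was at 1.32, 17.5 and 36.7 CPM in Foxi2 morphants at stage 9 against 1.05, 15.2 and 41.8 CPM in controls, and at 30.3 and 27.2 CPM against 35.4 and 27.9 CPM at stage 10.5. The groups overlapped at stage 9, and at stage 10.5 morphant replicate 1 lay between the controls. The ratios were 1.26, 1.15 and 0.877 at stage 9 and 0.856 and 0.977 at stage 10.5. The log2 difference was -0.060 (SE 1.44) and -0.13 (SE 0.23) without the block, and 0.026 (SE 0.13, edgeR adjusted p = 0.957) and -0.13 (SE 0.11, adjusted p = 0.572) with it. It turned positive at stage 9 without morphant replicate 1 (0.49) or control replicate 3 (1.21) and at stage 10.5 without control replicate 1 (0.057).

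*sox1* was at 1.38, 4.48 and 8.55 CPM in Foxi2 morphants at stage 9 against 0.583, 5.06 and 5.49 CPM in controls. At stage 10.5 it was at 10.1 and 5.92 CPM in morphants against 5.22 and 4.41 CPM in controls. The groups overlapped at stage 9 and did not at stage 10.5, and the pair ratios were 2.37, 0.885 and 1.56, then 1.93 and 1.34. The first of these rests on 23 counts against 10. Of all genes, 31.2% were higher in both pairs at stage 10.5. That rule allows overlap, and the share of all genes without overlap was not counted. The fitted difference was 0.38 (SE 0.98) and 0.73 (SE 0.42), and with the block 0.41 (SE 0.27, edgeR adjusted p = 0.543) and 0.72 (SE 0.22, adjusted p = 0.112). It was -0.35 at stage 9 without morphant replicate 3 and -0.13 without control replicate 1.

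The edgeR fit without a block called 0% of genes in the Foxi2 comparisons, with 145 genes at stage 9 and 277 at stage 10.5 at an unadjusted p under 0.05, none of them a SoxB gene. DESeq2 called 0.101% (20 genes) and 0.152% (30 genes). With the block 0.719% of 12802 genes were called at stage 9 and 1.47% of 13215 at stage 10.5. At an unadjusted p under 0.05 the block fit held 1 SoxB gene at stage 9, *sox3*, and 2 at stage 10.5, *sox1* and *sox3*. Of all genes, 1953 of 12802 at stage 9 and 2709 of 13215 at stage 10.5 were under this p in the same fits. Of the non-neural ectoderm markers the block fit called 2 of 5 as lower at stage 9 and 1 of 6 at stage 10.5. At stage 9 their sum was 390, 503 and 849 CPM in morphants 1, 2 and 3 against 355, 443 and 1274 CPM in controls. Morphants were thus higher in pairs 1 and 2. At stage 10.5 the sum was 1326 and 611 CPM in morphants against 2101 and 793 CPM in controls. *grhl1* was higher in morphants, uncalled, with means of 307 against 246 CPM and then 161 against 130 CPM. The other tested markers were lower at both stages. The part of these markers in the SoxB values was not tested.

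**Figure D5:**
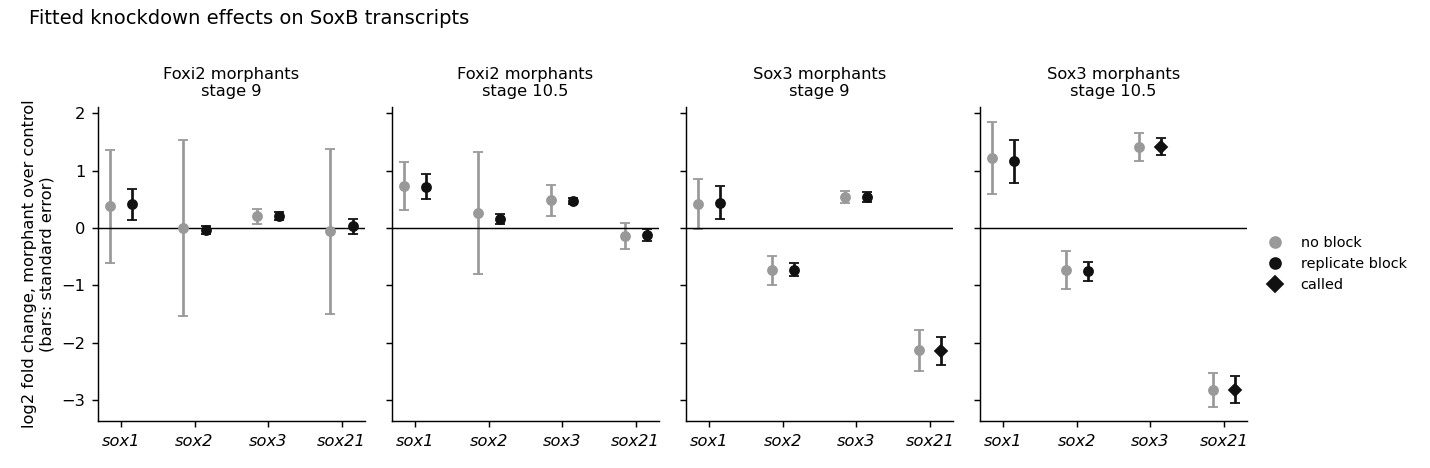
Log2 fold change of morphant over control, without a block (grey) and with the replicate block (black), for each SoxB gene and comparison. Bars give the SE, derived from the F statistic of the test. Diamonds are calls: *sox21* in Sox3 morphants at both stages and *sox3* at stage 10.5, all with the block.

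The effects of both knockdowns were compared as interaction terms, each against its own controls. Without a block no SoxB gene differed between them at either stage (edgeR, 0% of genes called at both), and only *sox21* at stage 10.5 had an unadjusted p under 0.05. Of all genes, 133 of 14316 at stage 9 and 378 of 14933 at stage 10.5 were under this p in the same fits. DESeq2 without a block called 0.0642% of genes at stage 9, no SoxB gene among them, and 0.168% at stage 10.5, including *sox21* (adjusted p = 6.35e-07). With the replicate block 1.98% of genes at stage 9 and 1.35% at stage 10.5 differed, and 2 and 3 of the 4 SoxB genes did. For *sox21* the Foxi2 effect minus the Sox3 effect was 2.17 (SE 0.25, edgeR adjusted p = 0.00161) at stage 9. At stage 10.5 it was 2.70 (SE 0.23, adjusted p = 0.00262). The Foxi2 effects on *sox21* were 0.026 and -0.13 and the Sox3 effects -2.14 and -2.81, so the larger change was that in Sox3 morphants. For *sox2* the signed difference was 0.70 (SE 0.12, adjusted p = 0.0159) and 0.91 (SE 0.17, adjusted p = 0.0493), with the Sox3 effects again the further from 0.

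For *sox3* the difference between the knockdowns was -0.32 (SE 0.11, edgeR adjusted p = 0.233) at stage 9 and -0.94 (SE 0.13, adjusted p = 0.0163) at stage 10.5 with the block, the Sox3 effect being the higher. For *sox1* it was -0.014 (SE 0.40, adjusted p = 1) and -0.46 (SE 0.39, adjusted p = 0.65). Between stages the difference of the Foxi2 effects was called for no SoxB gene, with edgeR adjusted p of 1 for each with and without the block and 0% of all genes called.

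When the 8 groups were ordered by mean log2 CPM, *sox3* was lowest in Sox3-series controls of stage 10.5 (469 to 655 CPM) and highest in Sox3 morphants of that stage (1241 to 1724 CPM). The 4 control groups took the 4 lowest places, each overlapping the next control group in the order, whereas the range of the highest group did not reach that of the next, Foxi2 morphants of stage 10.5 (785 to 1171 CPM). *sox21* was lowest in Sox3 morphants of stage 9 and next lowest in Sox3 morphants of stage 10.5, and neither range overlapped with that of the group next above it. Further up the order, however, Foxi2-series controls of stage 9 (1.05 to 41.8 CPM) overlapped with both. *sox2* was lowest in Sox3 morphants of stage 9 (13.7 to 17.1 CPM), without overlap with the next, and its 2 highest groups, morphants and controls of the Foxi2 series at stage 10.5, overlapped. Foxi2-series controls (7.29 to 298 CPM) and morphants (7.15 to 307 CPM) of stage 9 took in the range of that lowest *sox2* group.

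Across the 18 libraries, log2 CPM of *sox2* and *sox21* had a Pearson correlation of 0.86, of *sox1* and *sox2* 0.70 and of *sox1* and *sox21* 0.69. The correlation of *sox3* with *sox21* was -0.35, with *sox2* -0.11 and with *sox1* 0.14. The libraries share stages, pairs and treatments, so these values are a description. Among 12696 other genes with a mean of at least 1 CPM, the pattern most like that of *sox2* was found for *atpaf2* (0.98), *skida1* (0.97) and *arl4c* (0.97), and most like that of *sox21* for *LOC100493456* (0.98), *dyrk2* (0.96) and *gmnc* (0.95). For *sox1* they included *nkx2-4* (0.92) and *slc2a4rg* (0.90). No gene followed *sox3* as closely, the nearest being *otp* (0.76), *LOC100497356* (0.75) and *lhx8* (0.74). With Spearman's correlation 1 of the 3 nearest genes was retained for *sox1*, *sox2* and *sox21* and 0 for *sox3*.

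A list of other *sox* genes was set beside the SoxB genes. Of its 17 names 16 were in the tables and 11 or 12 were tested per comparison. *sox14*, the other SoxB2 gene, was not tested because of low counts. In the 4 knockdown comparisons 0 of these genes were called by edgeR, with or without the block, or by DESeq2. At an unadjusted p under 0.05, edgeR held 0 and 0 of them in Foxi2 morphants and 1 and 1 in Sox3 morphants at stages 9 and 10.5 without the block, and 3, 5, 3 and 5 with it. Over all genes the block fits held, in the same order, 1953 of 12802, 2709 of 13215, 1427 of 13909 and 2346 of 14427. The fits without the block held 145, 277, 392 and 795 of the same genes. The median log2 difference of the list was -0.15 at stage 9 and 0.15 at stage 10.5 in Sox3 morphants, beside medians of 0.0021 and 0.012 over all genes. Between stages in the Sox3-series controls *sox17a* (3.25, edgeR adjusted p = 0.00447) and *sox17b.1* (1.83, adjusted p = 0.0205), both endoderm factors, rose together with *sox2* and *sox21*, and *sox7* fell by 1.73 (adjusted p = 0.0122). With the block *sox17b.2* (1.86) was also called as higher, and *sox6* (-1.48) and *sox9* (-1.35) as lower.

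A second list held POU partners of SoxB factors and early neural genes, 25 names of which 23 were in the tables and 19 or 20 were tested. Without the block 0 were called by edgeR in any knockdown comparison. With the block 8 of 20 were called as lower in Sox3 morphants at stage 9 and 5 of 20 at stage 10.5, and none as higher, beside 1.01% and 1.48% of all genes as lower. DESeq2 without a block called 5 and 4 of the list, beside 0.324% and 0.874% of all genes in either direction. At an unadjusted p under 0.05, edgeR held 0 of the list at either stage in Foxi2 morphants and 8 and 6 in Sox3 morphants without the block. Over all genes these fits held 145 of 12802 and 277 of 13215 in Foxi2 morphants, and 392 of 13909 and 795 of 14427 in Sox3 morphants. With the block edgeR held 5 and 9 of 19 in Foxi2 morphants and 11 and 10 of 20 in Sox3 morphants. Over all genes the block fits held 1953 of 12802 and 2709 of 13215 in Foxi2 morphants. In Sox3 morphants they held 1427 of 13909 and 2346 of 14427. The median log2 difference of the list in Sox3 morphants was -0.63 and -0.35 without the block, beside 0.0021 and 0.012 over all genes. The genes that fell at both stages with the block were *zic4* (-4.31 and -3.88), *foxd4l1.1* (-3.08 and -1.24), *foxd4l1.2* (-3.01 and -1.92), *lhx5* (means of 6.72 CPM against 26.9 CPM and of 34.4 CPM against 99.7 CPM) and *neurog3*. *foxd4l1.1* encodes a forkhead factor that keeps neural ectoderm immature, and *neurog3* a proneural bHLH factor. *neurog3* had 0 CPM in both morphant libraries of stage 9 against a control mean of 0.952 CPM, and 0.169 CPM on average at stage 10.5 against 6.11 CPM.

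Genes called as lower with the block at stage 9 but not at stage 10.5 included *irx1* (-1.51, edgeR adjusted p = 0.000247) and *irx2* (-1.83, adjusted p = 0.00692), which encode homeodomain factors. The maternal and early zygotic POU genes *pou5f3.1*, *pou5f3.2* and *pou5f3.3* were not called in any knockdown comparison, with block differences in Sox3 morphants from -0.33 to 0.31. In Foxi2 morphants the block fit called 1 of 19 genes of the list per stage, beside 0.719% and 1.47% of all genes, both as higher, *otx2* at stage 9 (1.53, adjusted p = 0.0335) and *neurog3* at stage 10.5 (1.05, adjusted p = 0.0428). The study itself counts *otx2* among the endodermal genes of its vegetal explants, so its place in this list does not make its rise a neural one. In Sox3-series controls 11 of 20 rose between stages in the fit without a block, beside 5.46% of all genes as higher, among them *pou5f3.1* (3.39) and *otx2* (6.22), and 1 fell, *pou5f3.3* (-1.74).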

How the data were processed

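Poly(A) RNA-seq of 18 libraries was used, each matched to its group by its title, with the stage of a table taken from the table's own name. The authors deposited expected counts, RSEM's estimates of the reads per gene, 1 column per library. The study's methods name RSEM with STAR and the V10.0 genome, and the submitters' processing notes name RSEM 1.2.12 and Bowtie2 2.2.7, so which aligner made the tables is not clear. The methods call the values normalized, but the totals of 12740571 to 27866261 per library differ, and they were taken as unscaled. Reads shared by similar genes are divided between them by RSEM.

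After rounding to whole numbers, libraries were scaled by TMM, genes filtered with filterByExpr (minimum count 10), and models fitted by comparison with edgeR 4.0.16 (glmQLFit, glmQLFTest, R 4.3.3) across all genes, without covariates. Interaction terms were fitted over the libraries of both comparisons and called at an adjusted p under 0.05 alone. Log2 CPM used a prior count of 2. The SE given with an edgeR value is not a standard error from the model. It is the absolute log2 difference divided by the square root of the F statistic of its test. It can be out of step with the p-value. For *sox2* in Foxi2 morphants at stage 9 with the block it was 0.067 beside -0.033, with an unadjusted edgeR p of 0.982. The fits were tested on simulated data with a shared replicate effect and a fixed spread built in, which does not check the pairing of the real libraries. Fits without a block were the main test. Same-numbered libraries correlated at 0.748 to 0.940 in their deviations from group means, and groups of 2 fix these values up to their sign, so the 3 pairs of the Foxi2 series at stage 9 are the stronger evidence of pairing. Alternatives were the replicate block, DESeq2 1.42.0, RLE factors, library size only, every gene with at least 1 count, all 18 libraries in a single fit, and each library left out of the fit without the block. DESeq2 with the block was added after seeing the data. With 2 libraries against 2, an exact two-sided permutation test cannot go below p = 0.333, and with 3 against 3 below 0.1, so none was run.

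The genes, lists, tests and the rule for named genes (the 4 members, the 3 genes most like each, and list genes that were called) were chosen with earlier results of these data known. A few genes named by that rule are not reported. No sequence or other assay of the study was used here.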

Additional observations from a re-analysis of the deposited data

Results flagged for a closer look

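Of the interaction tests between the Foxi2 and the Sox3 knockdown, 5 were called for SoxB genes in the edgeR fit with the replicate block, and all 5 are given because the same contrast differed between both factors. At stage 9 the Foxi2 effect minus the Sox3 effect was 0.70 for *sox2* and 2.17 for *sox21*. In all 3 Foxi2 pairs *sox2* stayed between 0.914 and 1.03 of its control, against 0.569 and 0.642 in the Sox3 pairs. *sox21* was at 0.877 to 1.26 of its control in the Foxi2 pairs and at 0.207 and 0.245 in the Sox3 pairs. At stage 10.5 the difference was 0.91 for *sox2*, -0.94 for *sox3* and 2.70 for *sox21*. For *sox3* the Foxi2 pairs were at 1.32 and 1.45 of their controls and the Sox3 pairs at 2.63 and 2.65. None of the 5 was called without the block in edgeR. Each series has its own controls, and series and factor cannot be told apart.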

How the results depend on the processing

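Within edgeR on filtered genes, the knockdown calls were made with the replicate block and not without it. With it *sox21* in Sox3 morphants was called at stage 9 (-2.14) and at stage 10.5 (-2.81), and *sox3* at stage 10.5 (1.42). DESeq2 made these 3 calls as well, at -2.14, -2.84 and 1.40 without the block and at -2.15, -2.83 and 1.40 with it. With every gene kept, *sox21* was called at stage 10.5 without a block (-2.84). The difference between knockdowns was called with the block in edgeR and in DESeq2 for *sox2* (0.70 and 0.70) and *sox21* (2.17 and 2.21) at stage 9, and for *sox2* (0.91 and 0.92), *sox3* (-0.94 and -0.92) and *sox21* (2.70 and 2.71) at stage 10.5. DESeq2 without the block called the last of these at 2.70, and DESeq2 with it called the *sox3* difference between stages in the Sox3 series at 0.87. In the fit of all 18 libraries the stage calls of *sox2* (2.55) and *sox21* (1.60) in Sox3-series controls were lost.

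Over all genes, edgeR called 0 in each knockdown without the block and 92, 194, 183 and 484 with it in Foxi2 morphants at stages 9 and 10.5 and Sox3 morphants at stages 9 and 10.5. DESeq2 called 20, 30, 68 and 188. In Sox3-series controls 1988 genes were called between stages, and 3249 with the block.

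Differences near 0 changed sign. In Foxi2 morphants at stage 9 *sox2* turned to -0.033 with the block, -0.024 in DESeq2 with the block and -0.0032 with library size only, and *sox21* to 0.026 and 0.070 with the block in edgeR and DESeq2. Between knockdowns at stage 9 *sox1* turned to 0.051 in DESeq2 with the block. Between stages in the Sox3 series the *sox2* difference turned to -0.019 with the block, -0.0086 in DESeq2, -0.033 in DESeq2 with the block, -0.0079 with RLE factors and -0.043 with every gene.

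Leaving out 1 library at a time gave, in Foxi2 morphants at stage 9, -0.35 to 0.82 for *sox1*, -1.42 to 1.31 for *sox2* and -1.05 to 1.21 for *sox21*, and at stage 10.5 -1.39 to 1.62 for *sox2* and -0.30 to 0.057 for *sox21*. Between stages it gave -0.13 to 0.78 for *sox1*, -0.58 to 2.08 for *sox2* and -0.34 to 0.090 for *sox3* in Foxi2-series controls, and -0.76 to 0.0073 for *sox1*, -0.50 to 0.031 for *sox3* and 1.36 to 1.70 for *sox21* in Sox3-series controls. Between knockdowns it gave -0.77 to 0.41 for *sox1* and -0.68 to 2.04 for *sox2* at stage 9, and -0.99 to 0.29 and -0.65 to 2.37 at stage 10.5. For the difference between stages of the Sox3 effect *sox2* ranged from -0.43 to 0.36. For that of the Foxi2 effect *sox1* ranged from -0.086 to 1.07, *sox2* from -1.39 to 1.66, *sox3* from -0.032 to 0.55 and *sox21* from -1.33 to 0.91. At stage 10.5 of the Foxi2 series *sox1* ranged from 0.29 to 1.07 and *sox3* from 0.18 to 0.74, and at stage 9 *sox3* from 0.11 to 0.26. In Sox3 morphants each of the 4 differences kept its sign, but *sox1* ranged from 0.13 to 0.79 at stage 9 and from 0.45 to 1.72 at stage 10.5, and *sox2* from -0.97 to -0.47 and from -1.16 to -0.41. *sox3* ranged from 0.47 to 0.61 and from 1.15 to 1.67, and *sox21* from -2.34 to -1.95 and from -2.96 to -2.67. The cause of these changes was not tested. Each fit with a library left out had no block, so calls made with the block were not tested in this way. With 1 library left out of a group of 2, the lone library is assumed to vary like the other group.

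*sox1* rests on 10 to 139 counts per library, which limits its precision. Coding and exonic lengths could not be compared, since only the gene span was at hand.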
